A study of Mus musculus with 4 samples.

Results

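Somatic-marker cells were examined within a flow sort of undifferentiated spermatogonia (A_undiff) from mouse testis. They were chosen by their marker RNA among cells that showed more than 1000 genes and less than 20% mitochondrial UMIs (unique molecular identifiers, 1 per captured RNA molecule), and were those in which Clu, Sparc, Cd74, Acta2, Aldh1a1, Wt1, Inha, Cst9 and Cst12 together made up at least 0.3% of UMIs, and the spermatid genes Ldhc, Meig1, Crisp2, Acrv1 and Spink2 together under 0.5%. Of 7493 cells that passed the first filter, 127 met this rule. Because expression chose them, their levels against the remaining 7366 passing cells are given as a description without a test.

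The samples were 4 droplet single-cell RNA-Seq libraries from adult C57BL/6J wild-type mice aged 6 to 8 weeks, either untreated (CTRL) or harvested 10 days after a single 10 mg/kg dose of busulfan (BU). Each library pooled sorted cells of 3 mice, and there were 2 independent experiments with 1 CTRL and 1 BU library each, so n = 2 libraries per group and p-values measure the spread between pools. All cells were gated as E-cadherin+, CD49f+ and c-KIT-. The libraries of an experiment shared a sequencing lane, and the labels give a V2 kit for experiment 1 and V3.1 for experiment 2. Total UMIs were 26802228 in CTRL 1, 21136369 in BU 1, 39904588 in CTRL 2 and 53579969 in BU 2.

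The somatic compartment of the testis includes the Sertoli cells that nurse germ cells inside the tubule, the contractile peritubular myoid cells around it, and the steroid-producing Leydig cells, macrophages and vessels of the interstitium. At the exit of the tubules the rete testis forms a simple epithelium, for which the transcription factor PAX8 and the simple-epithelial keratins are known. E-cadherin, the product of Cdh1, is an adhesion molecule of epithelia as well as of early spermatogonia, and was 1 of the 2 positive gates of the sort.

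Most of the cells were not Sertoli-like. Clustering divided the 127 cells into 7 clusters, and 4 of these (97 cells) shared Pax8, keratin, Lcn2 and MHC class II transcripts. Within those 4 clusters, 7 cells held at least 0.2% of UMIs in genes of another cell type, a threshold set after the data were seen, and the other 90 are called Pax8 cells here, by their gene. The leading genes of the 4 clusters as a whole included Leydig genes from 2 of the 7 cells, so no cell type name was given. The remaining clusters were Sertoli-like (9 cells), peritubular myoid-like (7 cells) and spermatogonia-like (14 cells). The last of these goes against the label somatic, because its cells carried germ cell transcripts beside the marker genes.

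Because the Pax8 cells carried the MHC class II genes together, the 150 bases before the annotated start of H2-Aa (minus strand, chr17:34287824-34287973) and of H2-Eb1 (plus strand, chr17:34305717-34305866) are shown, both from RefSeq on GRCm38.p6 and both written 5′ to 3′. H2-Aa encodes an alpha chain and H2-Eb1 a beta chain of the class II molecules. Capitals mark CTGATTGG, the letters of the Y box, a CCAAT-type element known from class II promoters. Searched on both strands, these letters occurred in 1039 of 32851 promoter windows of the same length (3.16%), and a match is a description of sequence only.
H2-Aa: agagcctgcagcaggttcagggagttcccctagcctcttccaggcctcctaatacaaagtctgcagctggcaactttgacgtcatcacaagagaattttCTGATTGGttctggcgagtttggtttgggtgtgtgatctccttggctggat
H2-Eb1: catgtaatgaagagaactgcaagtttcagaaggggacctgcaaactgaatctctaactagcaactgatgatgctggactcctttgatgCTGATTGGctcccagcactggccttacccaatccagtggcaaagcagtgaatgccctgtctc
The element began 51 bases before the start of H2-Aa and 62 bases before that of H2-Eb1, once in each window. H2-Ab1, which encodes the partner chain of H2-Aa, lies between 34257689 and 34269419 on the same chromosome.

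The first question was how many somatic-marker cells each library held. They made up 0.484% of passing cells in CTRL 1 (15 of 3101), 1.20% in BU 1 (24 of 2008), 2.77% in CTRL 2 (31 of 1120) and 4.51% in BU 2 (57 of 1264). Exact binomial 95% intervals, which cover counting error only, were 0.271 to 0.797%, 0.767 to 1.77%, 1.89 to 3.91% and 3.43 to 5.80%. The share was higher in BU within each experiment, 2.47-fold in experiment 1 and 1.63-fold in experiment 2, but the groups overlapped because CTRL 2 exceeded BU 1. CTRL libraries averaged 1.63% ± 1.62 and BU libraries 2.85% ± 2.34 (SD, n = 2), which is 1.23 percentage points apart. By an exact permutation test over the 6 assignments of libraries (two-sided), p = 0.667, and the smallest p this design allows is 0.33. The difference was 0.712 points within experiment 1 and 1.74 points within experiment 2. A share of sorted cells cannot tell more somatic cells from fewer germ cells.

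Libraries of experiment 2 shared barcodes, which bears on these counts. Of the barcodes in CTRL 2 and BU 2, 677 occurred in both, against 11 in both CTRL 1 and BU 1, and 70 passed the filter in both CTRL 2 and BU 2. No barcode was a somatic-marker cell in 2 libraries. However, 11 of 31 cells in CTRL 2 and 3 of 57 in BU 2 had a barcode that was also listed, without passing, in the other library, and they held at least 55.5-fold and 71.8-fold more UMIs in their own library. When every cell with a barcode in the other library of the lane was left out, an alternative chosen after seeing the data, the shares were 0.485%, 1.20%, 2.23% (20 of 896) and 7.29% (54 of 741). The difference between groups became 2.89 points, with 5.06 points in experiment 2 (exact permutation p = 0.667).

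The marker share of single cells ranged widely. The median was 0.568% of UMIs in CTRL 1, 0.731% in BU 1, 1.10% in CTRL 2 and 0.844% in BU 2, and the highest was 6.22%, in CTRL 2. At the threshold, the lowest cells inside held 0.343%, 0.313%, 0.353% and 0.301% and the highest outside 0.293%, 0.260%, 0.289% and 0.222%, in the same order of libraries. Somatic-marker cells were shallower than the other passing cells in each library, with a median of 4713 against 8072 UMIs in CTRL 1, 3844 against 9897 in BU 1, 18155 against 31161 in CTRL 2, and 16355 against 35313 in BU 2. The depth of experiment 1 was lower for both, and its part in the differences between experiments was not tested.

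Pax8 cells made up a larger part of the somatic-marker cells in both BU libraries than in both CTRL libraries. They numbered 7 of 15 in CTRL 1 (46.7%), 22 of 24 in BU 1 (91.7%), 12 of 31 in CTRL 2 (38.7%) and 49 of 57 in BU 2 (86.0%). The CTRL and BU values did not overlap. With the 7 cells of other types counted in, the 4 clusters held 51.6% of the cells in CTRL 2 and 91.2% in BU 2, and with shared barcodes left out the Pax8 cells were 10 of 20 and 47 of 54. As a percentage of passing cells the values were 0.226%, 1.10%, 1.07% and 3.88%, which is 4.85-fold higher in BU in experiment 1 and 3.62-fold in experiment 2, though BU 1 and CTRL 2 were nearly equal. With shared barcodes left out, the percentages of passing cells were 0.226%, 1.10%, 1.12% and 6.34%. No test is given for this group since 7 cells were removed from it after their values were seen.

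**Figure D1:**
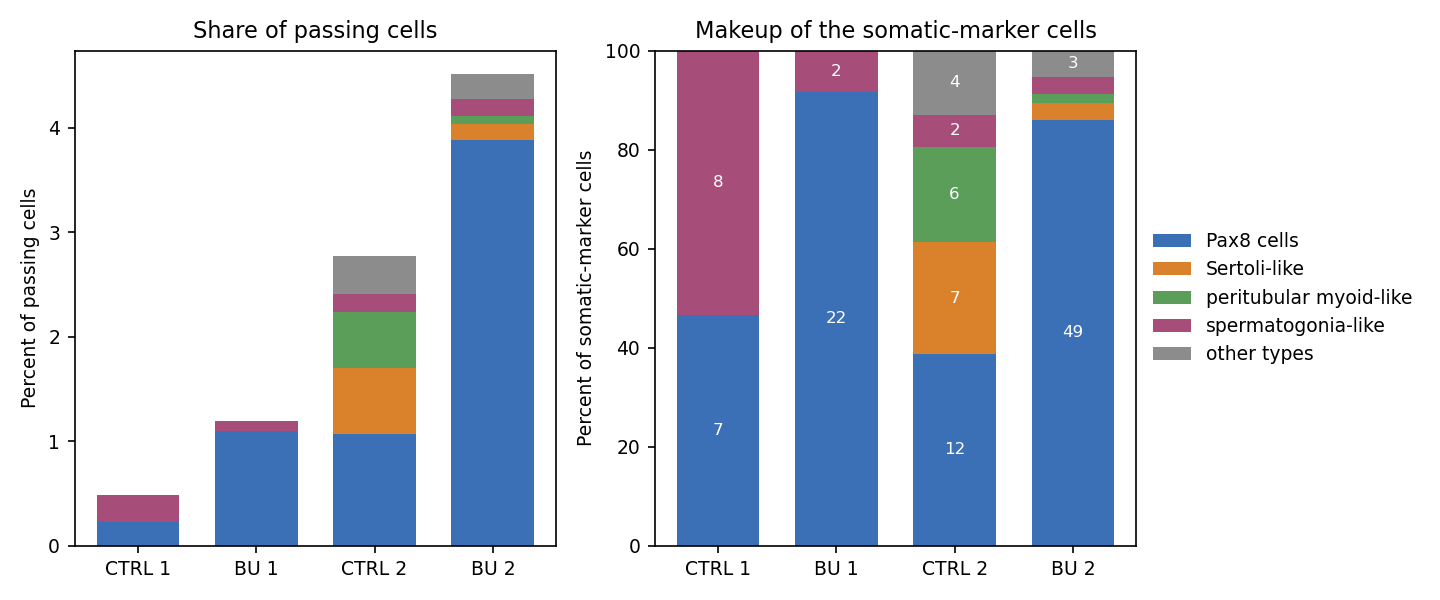
Left, percent of passing cells in each library (x axis) that met the somatic-marker rule, stacked by kind of cell. Right, the kinds as a percent of the somatic-marker cells, with the number of cells printed in segments above 4%. Pax8 cells (blue) fill 91.7% and 86.0% of the bars of the BU libraries and 46.7% and 38.7% of those of the CTRL libraries. Sertoli-like (orange) and myoid-like (green) cells are named by cluster, and those clusters held cells only of experiment 2.

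The gene that names the group was much lower in the other passing cells. Pax8 (chr2:24420560-24475599 on GRCm38, minus strand), summed over the Pax8 cells of a library, stood at 497 CPM in CTRL 1, 911 in BU 1, 509 in CTRL 2 and 504 in BU 2, where CPM is the share of those cells' UMIs scaled to 1000000. The other passing cells held 8.50, 6.79, 3.29 and 5.58 CPM. A Pax8 UMI was seen in 85 of 90 Pax8 cells (median 12432.5 UMIs) and in 671 of 7366 other passing cells (median 10212 UMIs), and in none of the 9 Sertoli-like cells (which allows up to 11.2 CPM) or the 7 myoid-like cells (up to 37.4 CPM). It was present in 3 of the 14 spermatogonia-like cells, at up to 360 CPM in a cell of BU 2, and in 1 of the 7 cells set aside, at 436 CPM.

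Epithelial genes accompanied Pax8. Krt8, a simple-epithelial keratin, stood at 70.9 CPM in CTRL 1, 228 in BU 1, 165 in CTRL 2 and 229 in BU 2, and its partner Krt18 at 248, 88.6, 277 and 257 CPM. In the other passing cells neither exceeded 8.37 CPM in any library. Wfdc2, a secreted protease-inhibitor-like protein of duct epithelia, was at 248, 304, 371 and 299 CPM, and Lcn2, which encodes the iron-siderophore carrier lipocalin 2, at 887, 1265, 1550 and 1998 CPM. All 10 duct epithelium markers had at least 1 UMI in the Pax8 cells, with a summed level of 3228, 3973, 3784 and 4581 CPM, but 3 of them were nearly absent, since Krt19 had 1 UMI, Cldn7 had 2 and Cldn4 had 3. Summed over the same list, the other passing cells reached no more than 28.3 CPM in a library. The list includes the rule marker Aldh1a1, which gave 1172.5 of the 4343 CPM in the Pax8 cells over all libraries. Part of this contrast therefore follows from the choice of cells.

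Pax8 cells also carried part of the Sertoli programme. Wt1, a transcription factor of the gonadal lineage, stood at 745, 633, 255 and 317 CPM, Sox9, which directs Sertoli differentiation, at 248, 215, 281 and 236 CPM, and Amhr2, the receptor of anti-Müllerian hormone, at 922, 645, 505 and 521 CPM. Cldn11, a tight-junction protein of the blood-testis barrier, was at 1277, 1088, 704 and 797 CPM. Of the 20 Sertoli markers, 19 had at least 1 UMI, with the exception of Fshr, the FSH receptor, whose 0 of 1257139 UMIs allows up to 2.39 CPM. Yet some genes that were high in Sertoli-like cells were close to 0 here, with 7 UMIs of the cystatin Cst9 (2 cells), 3 of Inha (2 cells), which encodes the inhibin alpha subunit, and 4 of the defensin Defb36 (4 cells). Others were not, since Ctsl, the lysosomal protease cathepsin L, stood at 958, 898, 1265 and 1000.3 CPM, and the cystatin Cst12, a rule marker, at 319, 202, 116 and 142 CPM with UMIs in 43 of 90 cells.

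Clu, Sparc and Aldh1a1 were abundant in the Pax8 cells of every library. Clu, the chaperone clusterin, stood at 1951, 2455, 2598 and 2281 CPM, Sparc, a matrix-binding glycoprotein, at 1419, 2037, 2504 and 2499 CPM, and Aldh1a1, a retinaldehyde dehydrogenase, at 1277, 1063, 887 and 1265 CPM. Acta2, the smooth-muscle actin, had 5 UMIs in the 90 cells. All 9 rule markers summed to 7448, 7997, 8074 and 8663 CPM in the Pax8 cells, against at most 87.3 CPM in the other passing cells of a library. These genes chose the cells.

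**Figure D2:**
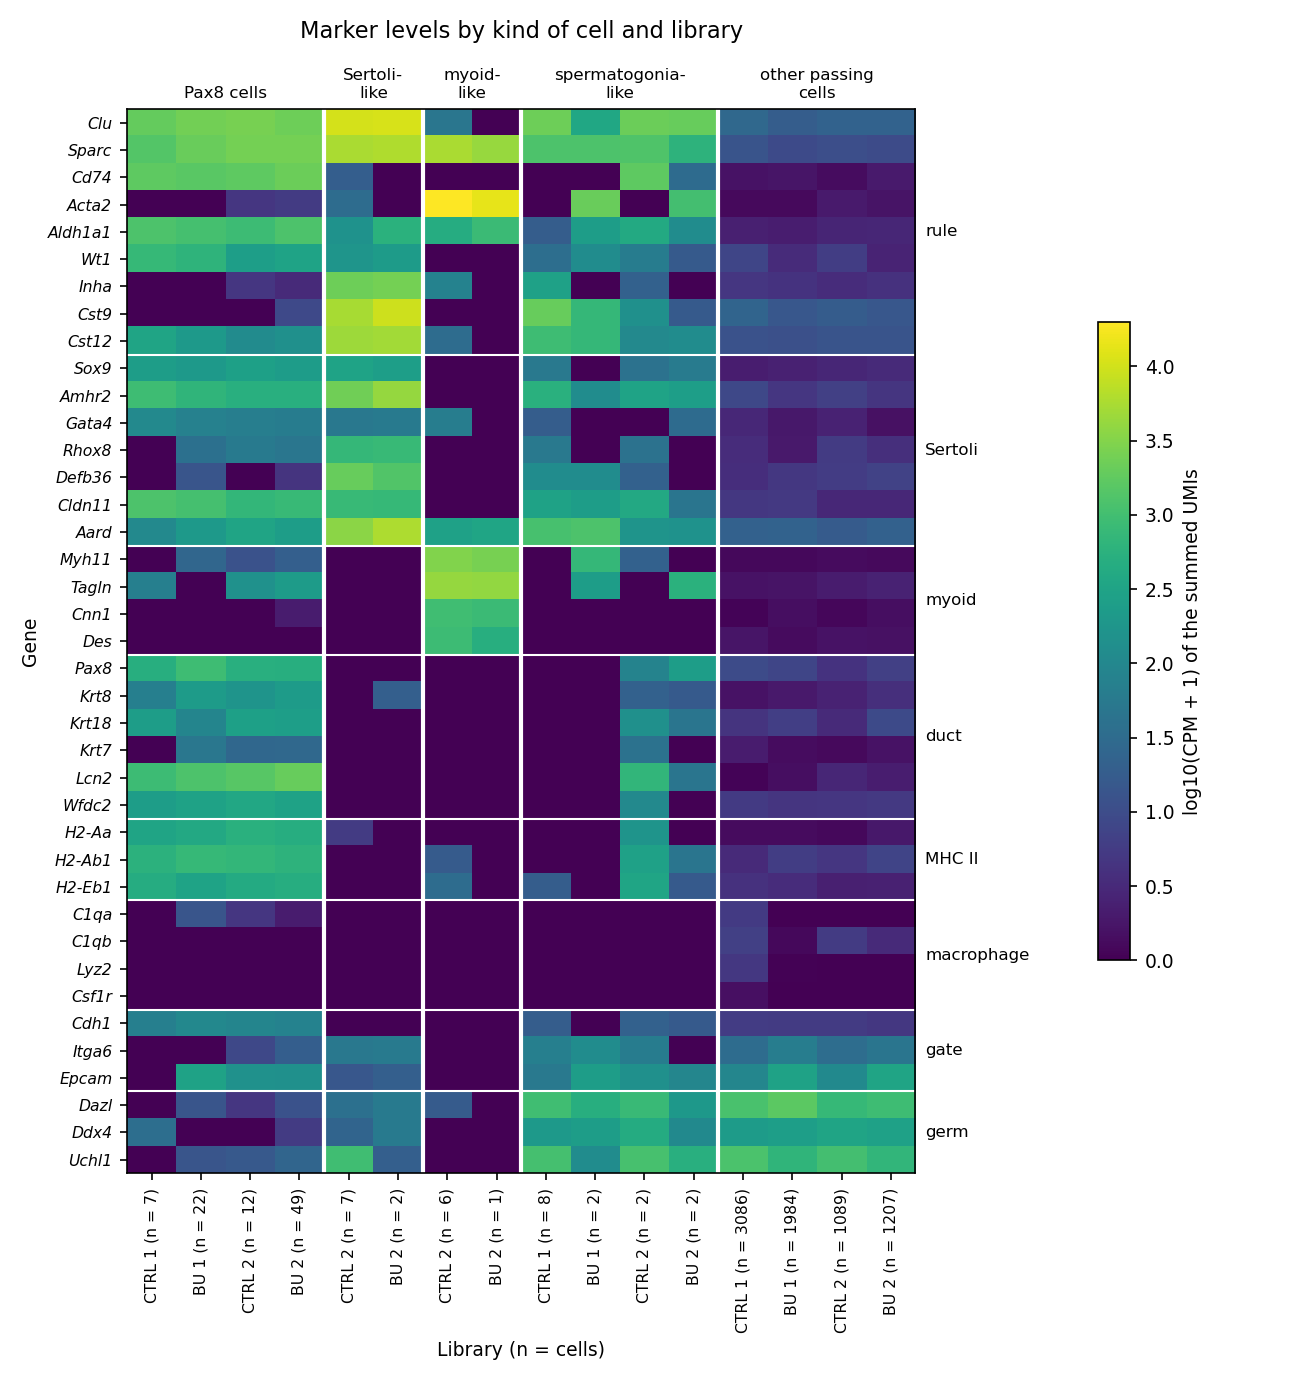
Levels of 39 genes (rows, grouped at the right) in each kind of cell and library (columns, with the number of cells), as log10(CPM + 1) of summed UMIs. Pax8 cells combine the duct and MHC class II genes with Sox9, Wt1 and Cldn11, the Sertoli-like columns are highest for Clu, Cst9 and Inha, the myoid-like columns for Acta2 and Myh11, and the macrophage genes C1qb, Lyz2 and Csf1r are at 0 in every Pax8 column.

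MHC class II genes were a shared feature of the Pax8 cells. Cd74, the invariant chain that escorts class II molecules, stood at 1738 CPM in CTRL 1, 1607 in BU 1, 1707 in CTRL 2 and 2143 in BU 2, against 0.642, 0.765, 0.371 and 1.10 CPM in the other passing cells. H2-Aa was at 319, 392, 543 and 472 CPM, H2-Ab1 at 567, 759, 715 and 600.4 CPM, and H2-Eb1 at 461, 316, 419 and 478 CPM. Cd74 UMIs were found in 85 of 90 Pax8 cells and in 62 of 7366 other passing cells. Since Cd74 is a rule marker, its contrast with the other cells partly follows from the choice of cells. H2-Aa, H2-Ab1 and H2-Eb1 are not rule markers. The groups overlapped for each of the 4 genes.

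Macrophages carry the same genes, so their defining markers were read in the same cells. The list of 14 macrophage and dendritic markers summed to 3086, 3100, 3399 and 3703 CPM in the Pax8 cells, its most abundant gene was the rule marker Cd74, and 11 of 14 had a UMI. C1qb, Lyz2 and Csf1r were at 0 UMIs, Adgre1, Tyrobp and Mrc1 had 1 UMI each, C1qc had 2, and C1qa, Fcer1g and Cd68 had 3 each. The level was thus nearly all Cd74, H2-Aa, H2-Ab1 and H2-Eb1. Cells of these clusters with at least 0.2% of UMIs in macrophage genes had already been set aside. The low counts of macrophage markers in the rest partly follow from that choice.

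Among single Pax8 cells the amount of class II RNA varied over a wide range. Cd74 ran from 0 to 3638 CPM in CTRL 1 (median 1554), from 0 to 5325 in BU 1 (median 1600), from 152 to 7918 in CTRL 2 (median 1044) and from 0 to 19934 in BU 2 (median 1545). Cells high in Cd74 were those high in the sum of H2-Aa, H2-Ab1 and H2-Eb1, with Spearman's rho across cells of 0.870 in BU 2 (49 cells), 0.783 in CTRL 2 (12 cells), 0.767 in BU 1 (22 cells) and 0.378 in CTRL 1 (7 cells). Against Pax8 itself the same sum gave 0.0645, -0.0839, 0.298 and 0.0721, in the same order. Cells of a library share their depth and preparation, so these are descriptions, and at the 1543 to 6446 UMIs per cell of experiment 1 a value often rests on a few UMIs.

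**Figure D3:**
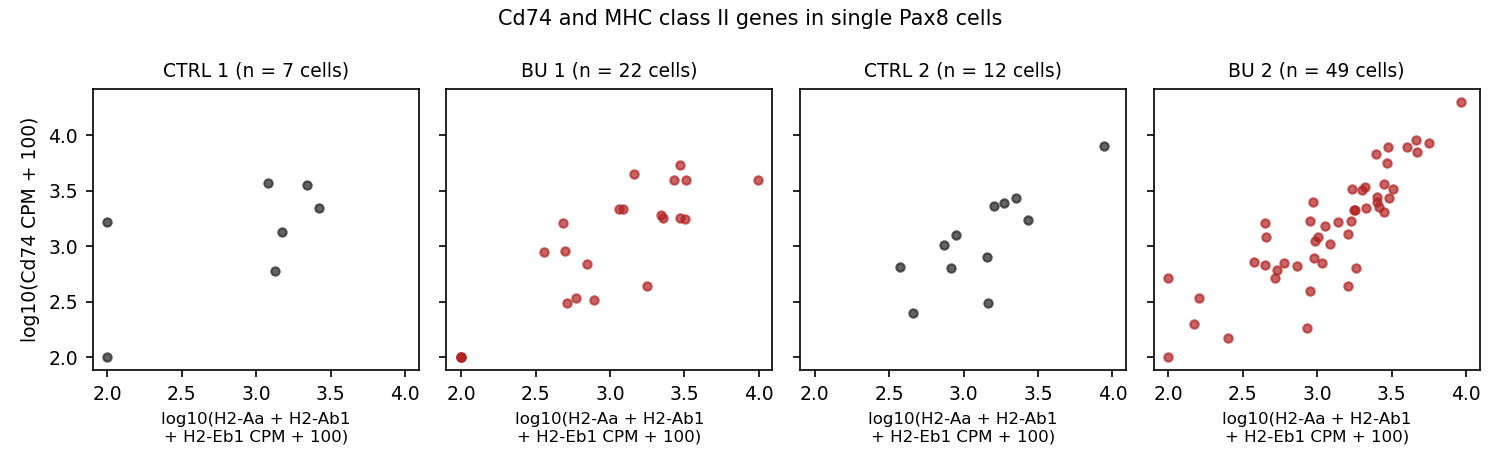
Each point is a Pax8 cell, with log10 of the summed H2-Aa, H2-Ab1 and H2-Eb1 CPM plus 100 on the x axis and log10 of the Cd74 CPM plus 100 on the y axis, 1 panel per library. Cells without UMIs of the genes sit at 2.0, and in BU 2 (rho 0.870) and CTRL 2 (rho 0.783) the points lie along a rising band.

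The gate of the sort can be read in these cells. Cdh1, which encodes E-cadherin, stood at 70.9, 101, 89.8 and 79.3 CPM in the Pax8 cells and at 4.80, 4.54, 4.56 and 4.03 CPM in the other passing cells. It had no UMI in the Sertoli-like or myoid-like cells. The limits for these, the same as given above for Pax8, lie above the level of the other passing cells. Itga6, which encodes CD49f, was at 0, 0, 7.49 and 18.1 CPM in the Pax8 cells against 31.5, 66.1, 33.2 and 46.0 CPM. The 0 of CTRL 1 allows up to 106 CPM, above the level of the other cells there, and that of BU 1 up to 38.0 CPM, below it. Kit had 0 UMIs in the Pax8 cells, which allows up to 2.39 CPM. Epcam, an epithelial adhesion molecule that is also a spermatogonial gene, was at 0, 304, 150 and 140 CPM.

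Several niche factor genes were present in the Pax8 cells. Bmp4, a TGF-beta family ligand, stood at 284, 190, 236 and 202 CPM against at most 2.19 CPM in the other passing cells, and Kitl, the ligand of c-KIT, at 35.5, 88.6, 48.7 and 52.1 CPM against at most 2.53 CPM. Igfbp7, which binds insulin-like growth factors, was at 142, 354, 247 and 334 CPM. Gdnf, the ligand that maintains spermatogonial stem cells, had only 12 UMIs in 11 cells. Gfra1, the GDNF co-receptor used as a marker of stem cells in this field, was found in 60 of 90 Pax8 cells at 106, 177, 150 and 146 CPM. The other passing cells held 31.1, 82.5, 31.0 and 70.4 CPM of Gfra1, with UMIs in 2631 of 7366 cells, so each library was higher in the Pax8 cells.

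By fold against the other somatic-marker cells, the leading genes of the Pax8 cells were Coch, Slc1a1, Fam47e, Cldn9, Elf3, 2310043M15Rik, Wfdc2, Hist3h2ba, Upk3b and Lsamp. Coch, which encodes the secreted protein cochlin, was at 248, 88.6, 442 and 341 CPM and had no UMI in the other somatic-marker cells. Elf3, an epithelial transcription factor, was seen in 36 cells and Upk3b, a uroplakin also known from mesothelium, in 47. Genes that were most widely detected relative to the other passing cells, a ranking added after the data were seen, included Ifitm3 (100% of Pax8 cells against 1.36%), Cp, which encodes ceruloplasmin (98.9% against 0.638%), and the complement gene C3 (94.4% against 1.24%).

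**Figure D4:**
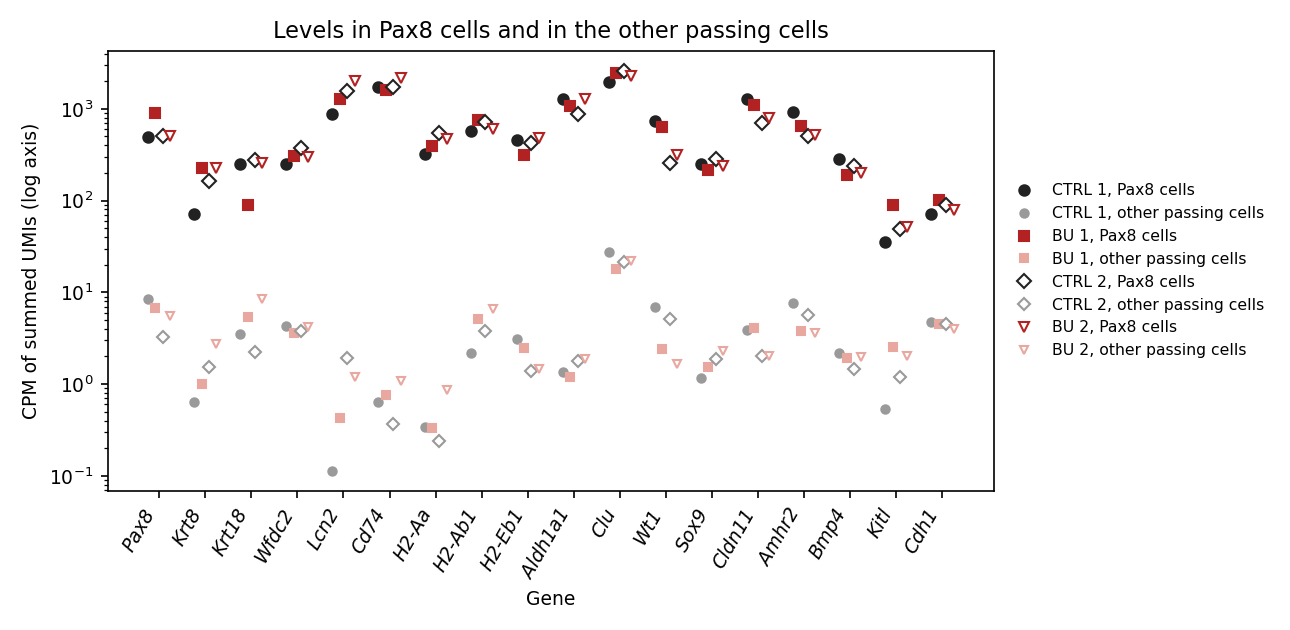
Summed level in CPM on a log axis for 18 genes in the Pax8 cells (dark symbols) and in the other passing cells (pale symbols), CTRL in black or grey and BU in red, experiment 1 filled and experiment 2 open. The symbols of the Pax8 cells lie above those of the other cells for every gene plotted, and CTRL and BU symbols intermingle for most genes, Cdh1 and Cd74 among them. The genes were picked for the plot and include Pax8 and the rule markers Cd74, Aldh1a1, Clu and Wt1. Genes lower in the Pax8 cells, such as Dazl, are not plotted.

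Germ cell RNA was low in the Pax8 cells. Prm2, a protamine of late spermatids, stood at 35.5, 12.7, 101 and 72.5 CPM against 1596, 540, 6137 and 2978 CPM in the other passing cells, and Dazl, a germ cell RNA-binding protein, had 12 UMIs in 11 cells against 1163, 1630, 763 and 926 CPM. Prm2 UMIs were seen in 45 of 90 Pax8 cells and 4662 of 7366 other passing cells, and free RNA in the droplets was not tested. Mitosis genes were also sparse, with 9 UMIs of Cenpf and 4 each of Top2a and Ccnb1. Among endothelial markers, Pecam1, Cdh5, Tek, Esam, Flt1 and Emcn were at 0, but the list summed to 177, 405, 367 and 358 CPM through Kdr, a VEGF receptor (283 CPM over all libraries), and Egfl7.

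The Pax8 cells were not uniform. They lay in 4 clusters of 27, 15, 38 and 10 cells, of which the cluster of 15 held only cells of experiment 1 (5 of CTRL 1 and 10 of BU 1) and the cluster of 38 mainly cells of experiment 2 (7 of CTRL 2 and 29 of BU 2, with 1 of each library of experiment 1). Depth and, by the labels, the kit differed between the experiments, and the clustering did not correct for library. Kinds of cell therefore cannot be told apart from kit or depth in this split. The cluster of 27 cells, 24 of them from BU as were 71 of all 90 Pax8 cells, was led by Ly6a, Lrg1 and Sgk1. Ly6a, which encodes the surface antigen Sca-1, was at 538 CPM in 18 of its 27 cells and at 33.7 CPM in the other Pax8 cells. The same cluster held 4029 CPM of Lcn2 against 922 CPM in the others. In the cluster of 10 cells Tagln, an actin-binding protein of contractile cells, reached 783 CPM, with UMIs in 4 of the 10 cells and in 14 of the 80 other Pax8 cells, and Krt8 was at 56.0 CPM, the lowest of the clusters. Pax8 was present in all 4, at 454, 753, 560 and 497 CPM in the order of sizes given above.

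The Sertoli-like cluster held cells only of experiment 2, 7 in CTRL 2 and 2 in BU 2. A cell of CTRL 1 in the spermatogonia-like cluster, described below, also carried Sertoli genes. Clu stood at 10473 CPM in CTRL 2 and 10858 in BU 2, Cst9 at 5539 and 9542, Cst12 at 4688 and 5071, and Inha at 2279 and 2497. All 20 Sertoli markers had UMIs, including Fshr (5 UMIs), Rhox5 at 88.4 and 116 CPM, and Defb36 at 1963 and 1355 CPM. Ctsl reached 6557 and 7897 CPM, and Kitl 242 and 116 CPM. Pax8, Lcn2, Wfdc2, H2-Ab1 and H2-Eb1 were at 0 UMIs. Cd74 had 4 UMIs, H2-Aa 1 and Krt8 1 in the 9 cells, and Aldh1a1, which is also on the duct list, stood at 153 CPM in CTRL 2 and 561 in BU 2. Clu, Sparc, Sox9, Wt1, Amhr2 and Cldn11 were present in these cells and in the Pax8 cells.

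The Sertoli-like cells varied in quality. Their UMIs ranged from 1784 to 59994, their median mitochondrial share was 10.5% in CTRL 2 and 12.9% in BU 2 against 3.32% and 3.40% in the Pax8 cells of the same libraries, and Prm2 was at 725 and 194 CPM. Clu in single cells ran from 2737 to 33632 CPM in CTRL 2. Of the 7 cells in CTRL 2, 4 had a barcode that also occurred in BU 2.

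The share of Sertoli-like cells among the somatic-marker cells was 0% in CTRL 1 (0 of 15, which allows up to 20%), 0% in BU 1 (0 of 24, up to 12.5%), 22.6% in CTRL 2 and 3.51% in BU 2. These shares count cells by cluster, so the CTRL 1 cell with Sertoli genes in the spermatogonia-like cluster is not among them. The difference of BU from CTRL was -9.54 percentage points (11.3% ± 15.97 in CTRL and 1.75% ± 2.48 in BU, mean ± SD, n = 2), and the exact permutation test gave p = 1 (two-sided). Of passing cells they were 0.625% in CTRL 2 and 0.158% in BU 2, with exact 95% intervals of 0.252 to 1.28% and 0.0192 to 0.570%. By the limit of 3 counts used for every 0 here, the 0 of 3101 in CTRL 1 allows up to 0.0967% and the 0 of 2008 in BU 1 up to 0.149%, and the exact 95% upper limits are 0.119% and 0.184%. The intervals of CTRL 2 and BU 2 overlapped, although the value was highest in CTRL 2. With shared barcodes left out, 3 cells in CTRL 2 (0.335% of passing cells) and 1 in BU 2 (0.135%) were left. With fewer than 3 Sertoli-like cells in 3 of 4 libraries, their genes were not compared between BU and CTRL.

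Peritubular myoid-like cells, counted by cluster, numbered 6 in CTRL 2 and 1 in BU 2. Cells high in Acta2 that lay outside this cluster, in BU 1 and BU 2, are described below. Acta2 stood at 19731 and 14085 CPM, Myh11, the smooth-muscle myosin heavy chain, at 3050 and 2637, Tagln at 4110 and 4040, and Mylk, myosin light chain kinase, at 2248 and 3311. All 8 myoid markers had UMIs. Cyp26b1, the enzyme that degrades retinoic acid, was found in all 7 cells at 1108 and 2301 CPM and had no UMI in the Pax8 cells. Their leading genes were Mfap4, Cnn1, Sct, Ltbp2, Dpep1, Itgbl1, Col1a1, Fibin, Cyp26b1 and Asb2. Collagens were present too, with Col1a2 at 1830 and 1122 CPM, whereas Clu had UMIs in 2 of the 7 cells and Cd74, Wt1 and Cst9 in none.

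The 14 spermatogonia-like cells were 8 in CTRL 1 and 2 in each of the other libraries. Dazl stood at 956 CPM in CTRL 1, 493 in BU 1, 811 in CTRL 2 and 199 in BU 2, and Uchl1 at 1080, 123, 1102 and 519.5 CPM, and all 13 spermatogonia markers had UMIs. They met the rule in different ways. Clu was present in 13 cells and Cst9 in 11, at up to 6938 CPM in a cell of CTRL 1, whereas Acta2 came from 2 cells, 1 in BU 1 and 1 in BU 2, and Cd74 from 2. That CTRL 1 cell, of 10810 UMIs, had a marker share of 1.93%. It also held Clu at 3978, Cst12 at 3515, Amhr2 at 1018, Inha at 740 and Defb36 at 463 CPM. The BU 1 cell, of 3960 UMIs, held Acta2 at 4293, Myh11 at 1515 and Cyp26b1 at 1263 CPM. Both took their name from the cluster, and whether they were Sertoli or myoid cells was not tested. Of the 127 cells 2 were marked as doublets by scrublet, and both were in this cluster, in BU 2. In CTRL 1 this cluster was the larger part of the cells (53.3%).

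The last 7 cells, within the clusters of Pax8 cells, were set aside for their genes of another type, all in experiment 2, and are grouped as other types in the plots. In CTRL 2, 2 cells with 38616 and 115388 UMIs carried 5.30% and 4.79% of their UMIs in 8 Leydig genes, with Cyp17a1 (17-alpha-hydroxylase) at 24038 CPM and Insl3 at 11656 CPM over both, and no Pax8, Cd74 or Cdh1 UMI. Kit, the gene of the negative gate, had 24 UMIs over both (156 CPM). They also held 36616 CPM of Lcn2. Macrophage genes marked 1 cell of CTRL 2 and 2 of BU 2, with C1qa at 1210 and 7674 CPM. That of CTRL 2, with 41307 UMIs, also held Pax8 at 436, Wt1 at 291, Cdh1 at 266, Krt8 at 121 and Lcn2 at 3656 CPM, so it carried the genes of the Pax8 cells beside 0.523% of macrophage genes, while those of BU 2 had no Pax8 UMI. An endothelial-gene cell in CTRL 2 held Flt1 at 878 CPM, and a myoid-gene cell in BU 2 held Acta2 at 19972 CPM. All 4 such cells of CTRL 2 had barcodes that also occurred in BU 2.

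Genes were then compared between BU and CTRL over the UMIs summed per library. With condition as the only term, edgeR called 0 of 7409 genes in the somatic-marker cells at the 0.05 threshold of adjusted p (percent called 0), while 370 (4.99%) had an unadjusted p under 0.05, and DESeq2 called 1, Uchl1 (0.0135%; DESeq2 adjusted p = 0.00753). When each experiment was made a replicate block, which the shared lane of each pair supports, edgeR called 22 genes (0.297%), and all 22 were lower in BU. The count and the direction of calls without the block depended on the libraries. With CTRL 1 or BU 1 left out, calls were mostly or all lower in BU. With CTRL 2 left out, more were higher than lower. Such fits leave 1 library in a group, so their counts are not given here. In such sums a change in the mix of cells and a change of level within a cell cannot be told apart.

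Of the 22 genes, 2 (Inha and Cst9) belong to the 9 markers that chose the cells, so their calls carry no weight and the other 20 are those independent of the rule by gene. Inha was at 189 CPM in CTRL 1, 0 in BU 1, 646 in CTRL 2 and 126 in BU 2, and Cst9 at 1323, 68.9, 1457 and 483 CPM. Among the other 20, Defb36 was at 82.7, 23.0, 515 and 70.4 CPM and fell by 2.76 on the log2 scale with the block (edgeR adjusted p = 0.0315, or 0.904 without it). Uchl1, a germ cell and neuronal ubiquitin hydrolase, was at 721, 23.0, 326 and 55.9 CPM and fell by 3.25 (edgeR adjusted p = 0.00654, or 0.693 without the block). Both BU values lay below both CTRL values for these 2 genes, as they did for 14.9% of all genes tested.

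The cells that carried these UMIs differed between the CTRL libraries. In CTRL 2, 11 of the 22 genes had over 50% of their UMIs in Sertoli-like cells, 8 in the cells of other types, 1 in myoid-like cells (Sfrp1, named after its values were seen) and 0 in Pax8 cells. In CTRL 1, which held no cell of the Sertoli-like cluster, 21 of the 22 had UMIs, and 18 had over 50% of them in spermatogonia-like cells. There all 112 Cst9 UMIs, all 61 Uchl1 UMIs, all 16 Inha UMIs and all 7 Defb36 UMIs were in spermatogonia-like cells. Of these, 75 Cst9, 8 Inha and 5 Defb36 UMIs lay in 1 cell, the CTRL 1 cell with Sertoli genes described above. Of the 268 Uchl1 UMIs in CTRL 2, 205 were in Sertoli-like and 53 in spermatogonia-like cells. CTRL 1 gave 253 UMIs of the 22 genes and CTRL 2 gave 6370, so percentages over both CTRL libraries mainly describe CTRL 2.

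**Figure D5:**
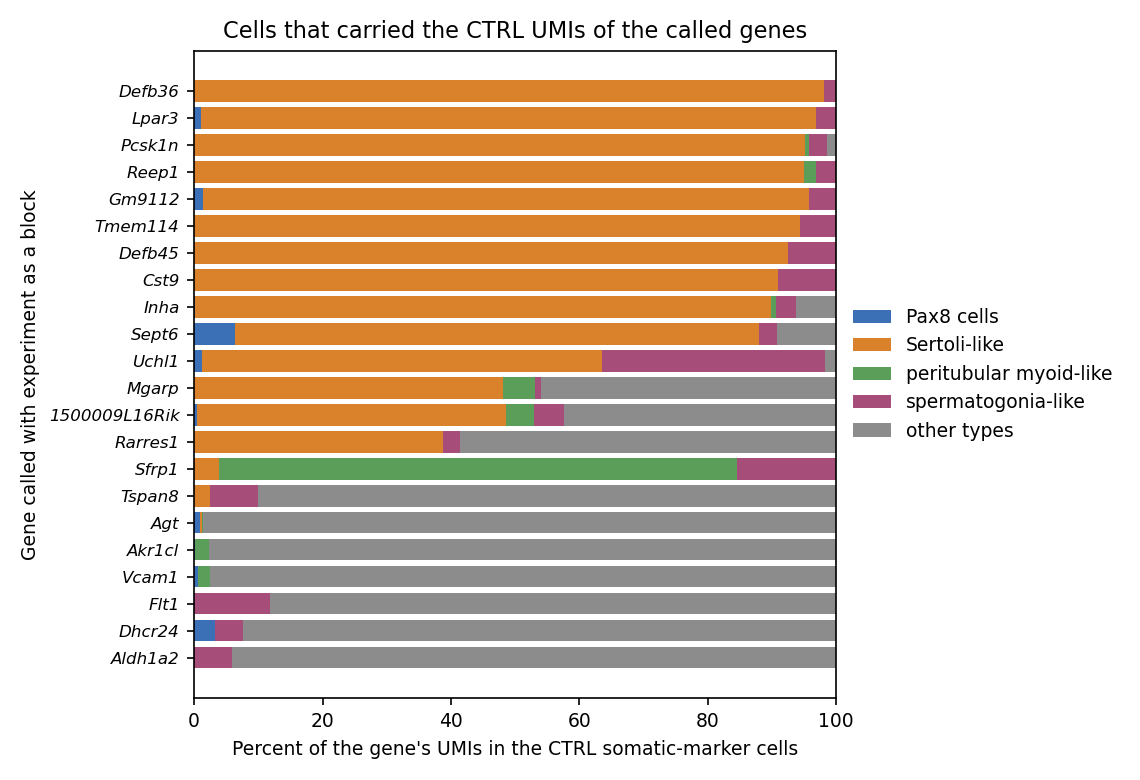
For each of the 22 genes called with the experiment as a block (y axis), the bar shows how the gene's UMIs in the somatic-marker cells of both CTRL libraries summed (percent, x axis), mostly those of CTRL 2, were divided among the kinds of cell. No gene has a large Pax8 (blue) segment, 11 are mainly orange (Sertoli-like) and 8 mainly grey (other types).

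Gene lists were described by their medians, beside a median log2 difference of -0.02 and 48.6% of genes higher in BU over all genes tested. Of the Sertoli markers, 18 of 20 were tested, 6 were higher in BU and the median was -0.78 (4 of 12 and -0.78 without the rule markers in the list), and 0 were called without the block and 3 with it, of which 2 were the rule markers Inha and Cst9. Of the spermatogonia markers, 8 of 13 were tested, 2 were higher in BU and the median was -2.78, with 1 (Uchl1) called lower with the block. Of the duct epithelium markers, 7 of 10 were tested, 6 were higher with a median of 1.15 (5 of 6 and 1.34 without the rule marker Aldh1a1). Of the macrophage and dendritic markers, 7 of 14 were tested and 7 were higher with a median of 1.08 (6 of 6 and 0.91 without the rule marker Cd74). None of the duct or macrophage markers was called by either fit. With the block 1 endothelial marker (Flt1) and 1 retinoid metabolism gene (Aldh1a2) were also called lower, and no other list held a call besides the rule markers.

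Pax8 over all somatic-marker cells was at 165 CPM in CTRL 1, 826 in BU 1, 192 in CTRL 2 and 444 in BU 2, with a log2 difference of 1.67 ± 0.49 (SE), and did not pass (edgeR adjusted p = 0.904, or 0.184 when blocked). Krt8 was at 23.6, 207, 60.8 and 197 CPM, 1.91 ± 0.55 (edgeR adjusted p = 0.904, or 0.167 when blocked). Cd74, a rule marker given without a test, was at 579, 1457, 706 and 2202 CPM. Both BU values lay above both CTRL values for Pax8 and Krt8, as they did for 18.5% of all genes tested.

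Within the 4 Pax8 clusters alone, a comparison added after seeing the data, edgeR called 0 of 5579 genes, with 119 (2.13%) at an unadjusted p under 0.05, and DESeq2 called 0. With the block 29 were called (0.52%), all lower in BU, and 26 of the 29 had over 50% of their CTRL UMIs in the 2 Leydig-gene cells, whereas 1, the linker histone gene H1fx (also named after its values were seen), had 78.9% in Pax8 cells. Of the CTRL UMIs of the 29 genes, 6073 were in CTRL 2 and 54 in CTRL 1. No list held a call by either fit in these clusters. The median log2 difference was -1.20 over the 5 tested niche factor genes (1 higher in BU) and 0.68 over 7 immediate early and heat shock genes (5 higher). It was 0.26 over 8 junction genes, 0.12 over 9 interferon response genes, -0.08 over 6 p53 target genes and -0.14 over 11 phagocytosis and lysosome genes. Without rule markers it was 0.37 over 5 duct, 0.21 over 6 macrophage and -0.004 over 9 Sertoli markers. Over all genes tested it was 0.03, with 52.7% higher in BU. These medians include the 7 cells of other types. In the Pax8 cells alone, niche factor genes summed to 780 CPM in CTRL 1, 822 in BU 1, 621 in CTRL 2 and 697 in BU 2. Immediate early and heat shock genes summed there to 3334, 2379, 1827 and 2011 CPM.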

How the data were processed

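Single-cell RNA-Seq counts (UMIs per gene and cell) were used as deposited by the authors, who ran Cell Ranger 3.0.2 per the file headers. The submitters' notes also name Seurat 3.2, and the kit version and genome build (mm10 or GRCm39) differ between the paper and the labels. Gene positions were read from GENCODE M21 (GRCm38).

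Barcodes that showed more than 1000 genes and less than 20% mitochondrial UMIs were kept as passing cells, and the somatic-marker rule was applied to each. The members and the gene lists were chosen with earlier results of these data known. The 127 cells were clustered with scanpy 1.11.5 (1000 variable genes, 15 principal components, 10 neighbours, Leiden resolution 1). Each cluster was named from the fixed marker list with the highest mean log2 fold against all other somatic-marker cells. For the Pax8 clusters of 30, 15, 41 and 11 cells the duct list gave 1.35, -0.987, -0.180 and -1.07. The cells compared against included the other Pax8 clusters, and a negative value could still be the highest. Doublets were marked by scrublet and left in.

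UMIs were summed per library and tested with edgeR 4.0.16 (quasi-likelihood, TMM, filterByExpr, Benjamini-Hochberg) in R 4.3.3. DESeq2 1.42.0 was an alternative. Shares were compared by an exact two-sided permutation test over libraries. The scripts were tested on simulated data. Genes named are those of the fixed lists, the 10 leading genes of each type by fold with at least 20 CPM, and the genes said in the text to be chosen afterwards. No gene passed the condition-only fit, so the rule for rises and falls named none.

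The libraries of an experiment shared a lane and, by the labels, a kit version, which pairs them. After subtraction of the group means, CTRL 1 correlated with BU 1 at 0.127 over 7409 genes. Of the 23 lists, 1 gene (Nectin2) was not matched. Intervals and limits for 0 cover counting error only. Depth differed between experiments, at 21136369 to 53579969 UMIs per library.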

Additional observations from a re-analysis of the deposited data

Results flagged for a closer look

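Somatic-marker RNA was also found in barcodes that failed the filter on genes or mitochondrial share, which no comparison used. The marker rule was met by 6.10% of failing barcodes in BU 1 (5 of 82) against 5.63% in CTRL 1 (9 of 160), and by 5.71% in BU 2 (34 of 595) against 2.89% in CTRL 2 (26 of 899). Of the 34 in BU 2, 9 carried the barcode of a somatic-marker cell of CTRL 2, and of the 26 in CTRL 2, 3 carried that of one in BU 2, and their part in the difference was not tested.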

How the results depend on the processing

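The higher share of somatic-marker cells in BU kept its direction in all alternatives run, with differences of 1.11 to 2.89 percentage points (0.712 to 1.74 with 1 experiment left out), and no p fell below 0.667. The difference in Sertoli-like share was -10.3 to -9.47 points except with shared barcodes left out (-6.57 points, chosen after seeing the data) and at resolution 0.5, where no cell was named Sertoli-like, and ran from -19.1 to 0 with 1 experiment left out.

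The number of genes called between BU and CTRL was not stable. Against 0 without it, the replicate block gave 22, DESeq2 gave 1 and no filter on low counts gave 88 (2 higher and 86 lower). Leaving out 1 library gave 0 to 287, where the lone library of a group is assumed to vary like the others. Alternatives chosen after seeing the data gave 29 for the Pax8 clusters with the replicate block and 86 without the spermatogonia-like cluster with the replicate block (7 higher and 79 lower), and 0 for both without it. The cause was not tested. Each count is of genes called, not of the same genes. The direction also depended on the library left out. Calls were mostly or all lower in BU without CTRL 1 or BU 1, but more were higher than lower without CTRL 2.

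The planned comparison of Sertoli-like cells between BU and CTRL, and its alternatives, were not run because 3 of 4 libraries held fewer than 3 such cells. With n = 2 per group and 7 to 49 Pax8 cells per library, a p that misses the threshold does not show that levels were equal.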
